A study of Bubalus bubalis with 6 samples.

Results

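The mitochondrial carrier family (SLC25 and the uncoupling proteins UCP1, UCP2 and UCP3) was examined in cultured buffalo (Bubalus bubalis) intramuscular adipocytes with and without overexpression of lncFABP4, a long non-coding RNA, in a study that asked which genes the RNA changes while the cells differentiate. Members were taken by gene name alone, every model of a name kept, which gave 40 gene models under 38 names out of 19476 models in the table. The family was selected on earlier results of this same contrast, among them the higher level of SLC25A35, so the differences below are a description of where each carrier stood in a test across all models, and SLC25A35, although counted with the calls of that test, is described without a p-value and supports nothing. A total of 31 member models under 30 names reached the minimum for testing, which was 1 FPKM in 3 or more of the 6 samples. Each of the 31 exceeded 1 FPKM in all 6 samples, so none was admitted through 1 group alone.

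Carriers of this family sit mostly in the inner membrane of the mitochondrion and swap metabolites, nucleotides and cofactors between the matrix and the cytosol. In fat cells the citrate and dicarboxylate carriers connect the citric acid cycle with cytosolic fatty acid synthesis, the carnitine carrier brings acylcarnitines in for oxidation, and UCP1 lets protons leak in brown and beige cells to make heat. The ADP/ATP carriers exchange ADP for ATP and are among the most abundant proteins of the inner membrane.

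One group of 3 samples had received an adenovirus for lncFABP4 (the genotype label is lncFABP4 overexpression), and the other group of 3 an adenovirus for EGFP, a green fluorescent protein, in wild-type cells. All 6 cultures stood in medium with 20% fetal bovine serum, were kept 48 h with virus and then 48 h in inducing medium, and were collected on day 4. The dose of virus is not given in the sources used here, and a level driven by a virus need not match that of the cells' own gene. The labels mention wells plated in triplicate but no separate animals or cultures. The p-values therefore rest on the spread among these wells, which may be technical. Polyadenylated RNA was sequenced on a DNBSEQ instrument, and the deposited values, for which the table's header names no unit, were taken to be FPKM, a fragment number corrected for model length and for the fragments mapped in that sample.

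Column totals ran from 340165 to 360920 FPKM, and 10907 to 10987 models per sample reached 1 FPKM. Across all models tested, the correlation of log2 values was 0.986 to 0.993 among lncFABP4 samples, 0.988 to 0.991 among EGFP samples and 0.966 to 0.977 between the groups. FABP4, the fatty acid binding protein gene that shares the name of the RNA, stood at 6505, 10588 and 12003 FPKM in the lncFABP4 samples, against 154, 149 and 197 FPKM in the EGFP samples. No model is named lncFABP4, and whether its reads were counted on FABP4 was not tested. PPARG, the main regulator of fat cell formation, averaged 25.2 ± 1.77 FPKM with lncFABP4 and 12.2 ± 0.527 FPKM with EGFP (SD, n = 3 each; limma adjusted p = 0.000321). LPL, the lipoprotein lipase of fat cells, was at 0.999 ± 0.160 FPKM with lncFABP4 and 2.78 ± 0.710 FPKM with EGFP (limma adjusted p = 0.00349). PPARG and LPL thus differed in opposite directions. LPL exceeded 1 FPKM in every EGFP sample but, with lncFABP4, only in replicate 2. DGAT2 was called higher, and CIDEC and GPD1 were not called (limma adjusted p = 0.152 and 0.783). Against the label of the cells, 2 defining adipocyte markers were all but missing: CEBPA never exceeded 0.190 FPKM, nor ADIPOQ 0.0559 FPKM. The preadipocyte and fibroblast markers summed to 5308 to 5789 FPKM with lncFABP4 and 8521 to 9080 FPKM with EGFP, and all 5 tested of 6 found were called lower. The untested one, CD34, went the other way near 0. It had 0.117 to 0.159 FPKM with lncFABP4 and 0.0178 to 0.056 FPKM with EGFP. In bulk RNA, fewer cells of a type and less RNA per cell cannot be told apart. The part of this shift in the carrier results was not tested.

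The family spanned from models listed at or near 0 to SLC25A6 at 224.5 FPKM in the EGFP samples. In the EGFP samples 12 models averaged over 20 FPKM, 19 lay between 1 and 20 FPKM and 9 were under 1 FPKM. FPKM is scaled to length, so these levels can be set side by side. The 10 models highest in the EGFP samples held 77.1% to 78.2% of the summed level of the 40 member models in every sample.

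**Figure D1:**
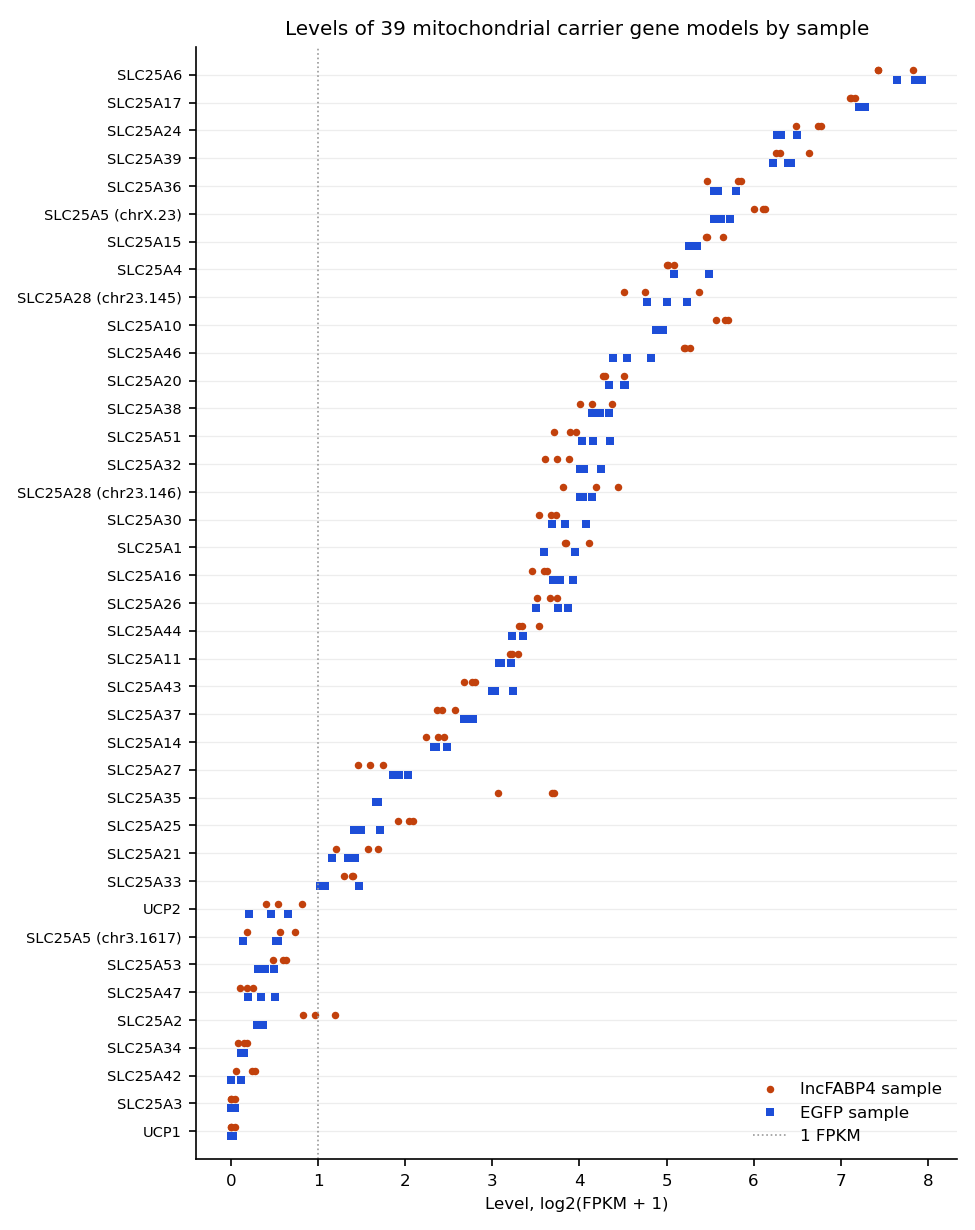
Level of 39 of the 40 carrier models in each sample, as log2(FPKM + 1) on the horizontal axis, ordered by the mean of the EGFP samples; circles are lncFABP4 samples, squares EGFP samples, and the dotted line marks 1 FPKM. The circles of SLC25A35, at 7.34 to 12.1 FPKM, stand well to the right of its squares at 2.16 to 2.22 FPKM, while most other rows overlap.

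SLC25A6, an ADP/ATP carrier, was first in both groups, at 227, 171 and 171 FPKM with lncFABP4 and 244, 198 and 231 FPKM with EGFP. SLC25A17, a carrier of the peroxisome rather than the mitochondrion that moves coenzyme A and other adenine cofactors, was second in both, at 142, 138 and 137 FPKM with lncFABP4 and 147, 155 and 148 FPKM with EGFP. The 3 lncFABP4 samples of SLC25A17 all lay below the EGFP samples, but the difference of -0.11 (log2(FPKM + 1)) did not pass limma (adjusted p = 0.22). SLC25A24, a calcium-regulated ATP-Mg/phosphate carrier, averaged 101 ± 10.5 FPKM with lncFABP4 and 81.2 ± 6.99 FPKM with EGFP. SLC25A39, which brings glutathione into mitochondria, averaged 83.8 ± 12.6 FPKM with lncFABP4 and 80.5 ± 5.88 FPKM with EGFP. The EGFP ranges of SLC25A24 and SLC25A39 overlapped, so their order is not settled.

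The next models in the EGFP order were SLC25A36, a pyrimidine nucleotide carrier (51.8 FPKM with lncFABP4, 49.2 FPKM with EGFP), the SLC25A5 model chrX.23, SLC25A15, the ornithine carrier of the urea cycle, SLC25A4, the ADP/ATP carrier typical of muscle and heart, the SLC25A28 model chr23.145, named after mitoferrin-2, and SLC25A10. Among these, SLC25A36 and SLC25A5, SLC25A15 and SLC25A4, SLC25A4 and SLC25A28, and SLC25A28 and SLC25A10 were neighbours whose EGFP ranges overlapped. SLC25A5 did not overlap with SLC25A15 below it. With lncFABP4, SLC25A10 stood 7th instead of 10th, and SLC25A35 21st instead of 28th.

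The 40 member models summed to 1064, 993 and 989 FPKM with lncFABP4 and to 997, 962 and 1008 FPKM with EGFP. This sum is not that of the whole family. It lacks 11 RefSeq family symbols without a named model, and models with a carrier protein entry but no gene name. The only model named SLC25A3, a name that is uncertain, added at most 0.0313 FPKM. The groups overlapped, with means of 1015 ± 42.0 FPKM with lncFABP4 and 989.1 ± 23.7 FPKM with EGFP (SD, n = 3 each). As a share of the column total this was 0.287% ± 0.00721 with lncFABP4 and 0.284% ± 0.00145 with EGFP, again with overlap. With FABP4 left out of the total, the share was 0.295% ± 0.00485 with lncFABP4 and 0.284% ± 0.00146 with EGFP (SD, n = 3 each), and all lncFABP4 samples lay above the EGFP samples.

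Set against lncFABP4 minus EGFP in the test over 11064 models, 5 of the 31 carriers were called higher and 3 lower at a limma adjusted p under 0.05, and 23 were not called. Those 5 are 16.1% of the carriers, where 16.5% of all models tested were called higher. The 3 are 9.68% of the carriers, where 10.2% of all models tested were called lower. Both shares were near the background, and nothing about the family as a whole is read from them. All lncFABP4 samples lay above all EGFP samples for 6 carriers (19.4%, against 26.6% of all models), and below them for 7 (22.6%, against 17.2%), while 18 overlapped.

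The count of carriers called lower changed with the samples used and with the scaling. It was 4 without lncFABP4 replicate 1 and 1 without EGFP replicate 2. It was 0 without lncFABP4 replicate 2 or 3 or EGFP replicate 1 or 3. The count over all models moved the same way. From 1131 with all samples it went to 1446 without lncFABP4 replicate 1 and 1057 without EGFP replicate 2. That count was 689 and 645 without lncFABP4 replicate 2 and 3, and 765 and 674 without EGFP replicate 1 and 3. Under TMM, median-of-ratios or quantile scaling SLC25A37, SLC25A51 and SLC25A16 were also called lower, and under quantile scaling SLC25A17 as well. Those scalings put the share of all calls that were higher at 49.7% (TMM), 49.2% (median-of-ratios) and 50.8% (quantile), against 61.8% on the values as deposited.

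The median difference was -0.03 over the carriers and 0.05 over all models (log2(FPKM + 1)), with 15 carriers positive and 16 negative. Their median size, sign set aside, was 0.18, against 0.20 over all models. On this scale the change of a low model is understated. The models not called had ratios of lncFABP4 over EGFP means from 0.786 to 1.24, so the differences within the family were small apart from a few members. At an unadjusted p under 0.05 there were 13 carriers (41.9%), where 40.2% of all models tested were under it.

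**Figure D2:**
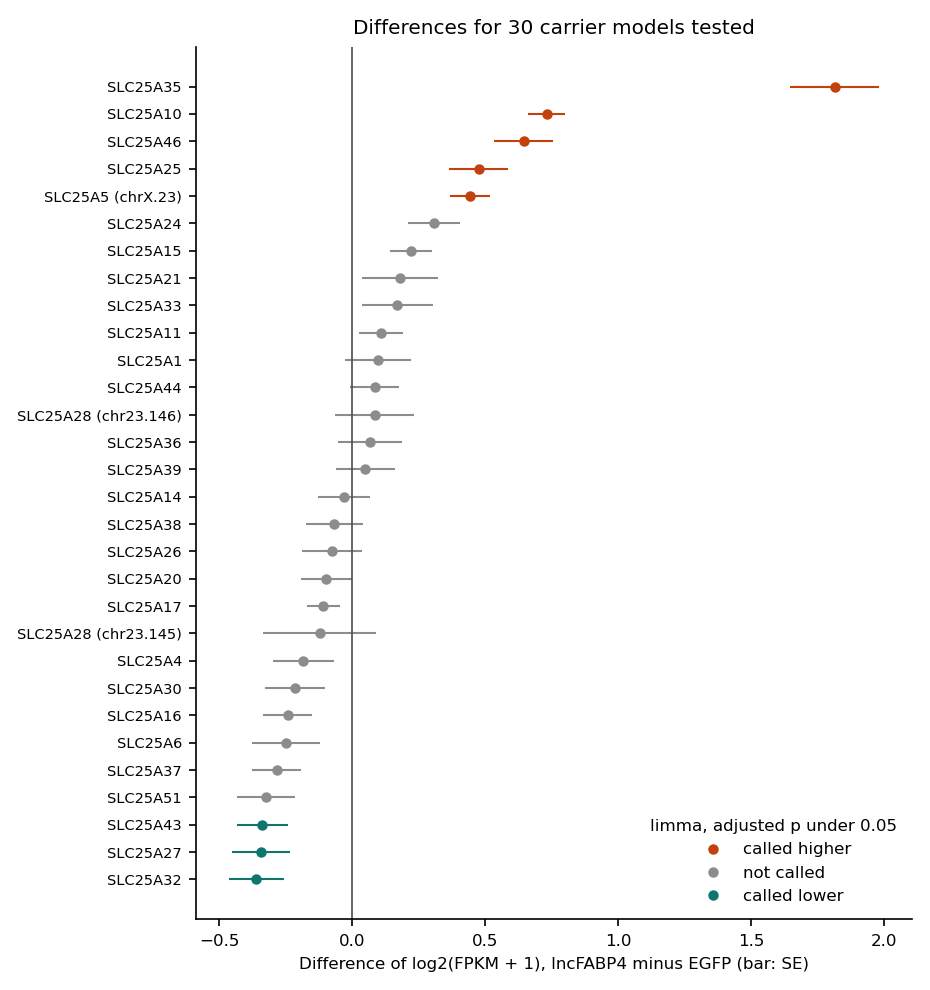
Difference of log2(FPKM + 1), lncFABP4 minus EGFP, for 30 of the 31 carrier models tested, with the limma standard error as a bar; colour shows the 5 called higher, the 3 called lower and 22 not called at an adjusted p under 0.05. SLC25A35 stands apart at 1.81, and the next, SLC25A10, is at 0.73.

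SLC25A35, a member whose substrate in animals is not settled and whose closest relatives are likened to the yeast oxaloacetate carrier, differed most. It had 7.34, 11.9 and 12.1 FPKM in the lncFABP4 samples, against 2.19, 2.22 and 2.16 FPKM in the EGFP samples. The groups did not overlap, the EGFP samples were nearly equal, and lncFABP4 replicate 1 was the lowest of its group. The means of 10.5 ± 2.70 FPKM with lncFABP4 and 2.19 ± 0.0308 FPKM with EGFP (SD, n = 3 each) are 4.77-fold apart, a difference of 1.81 in log2(FPKM + 1). Among the 11064 models tested it was 9th of the positive differences on this scale. The same lncFABP4 replicate 1 was also the lowest for FABP4. In 54.2% of all models tested this replicate was the sample farthest from its group median. SLC25A34, a relative of SLC25A35, was at most 0.133 FPKM with lncFABP4 and 0.106 FPKM with EGFP and was not tested.

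Models numbered near it were not called. Of the 10 models within 5 places of the SLC25A35 model (chr3.882), 6 were tested and limma called 0 (1 at an unadjusted p under 0.05), with differences from -0.19 to 0.22 in log2(FPKM + 1). RANGRF, a nuclear import factor gene numbered next to it, had 1.45, 2.61 and 2.46 FPKM with lncFABP4 and 2.29, 1.64 and 2.35 FPKM with EGFP, and these ranges overlapped. PFAS, an enzyme of purine synthesis, was at 5.72, 5.75 and 5.55 FPKM with lncFABP4 and 4.91, 4.61 and 4.65 FPKM with EGFP, without overlap but short of the limma threshold (adjusted p = 0.0745).

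**Figure D3:**
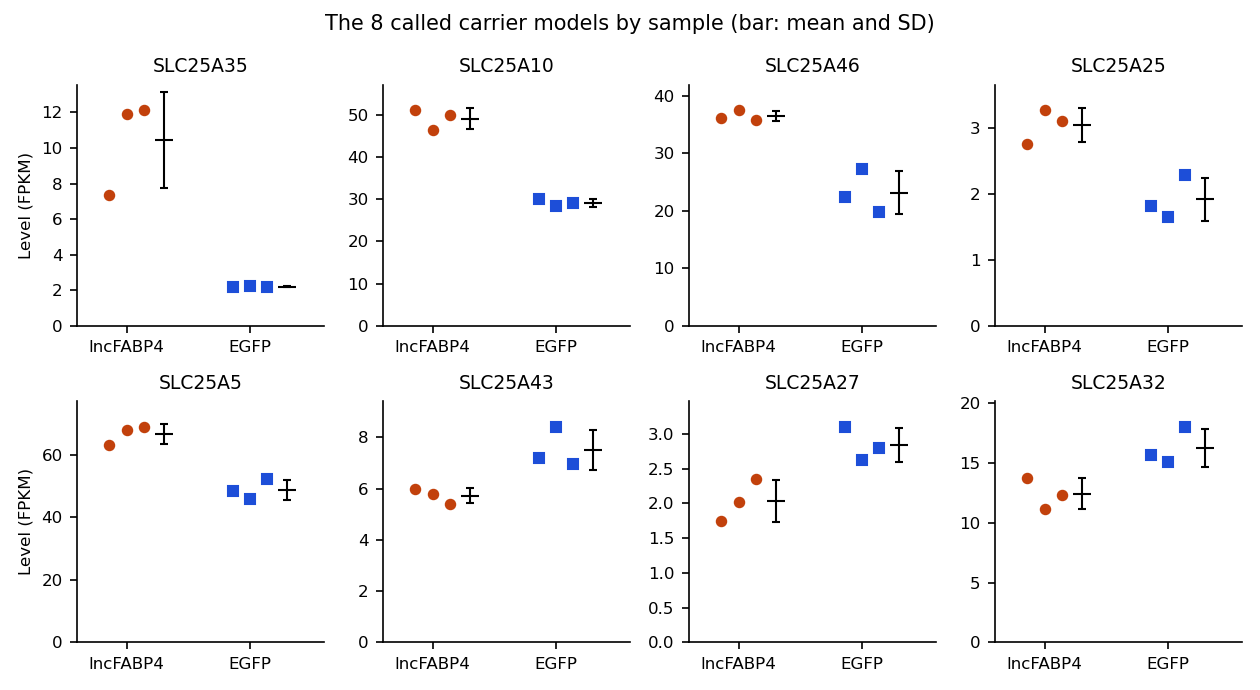
Level in FPKM of the 8 called carriers in each sample, lncFABP4 samples (circles) on the left and EGFP samples (squares) on the right of each panel, with the mean and SD as a bar; each axis starts at 0. In all 8 panels the samples of the 2 groups do not overlap.

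Among the di- and tricarboxylate carriers 1 of 4 was called, SLC25A10, the dicarboxylate carrier that exchanges malate and succinate for phosphate. SLC25A10 had 51.0, 46.3 and 49.8 FPKM with lncFABP4, against 30.1, 28.4 and 29.0 FPKM with EGFP. The lowest lncFABP4 sample was well above the highest EGFP sample. It rose 1.68-fold, with means of 49.1 ± 2.44 FPKM with lncFABP4 and 29.2 ± 0.884 FPKM with EGFP (SD, n = 3 each) and a difference of 0.73 (SE 0.07, limma adjusted p = 0.000565). SLC25A1, the citrate carrier that feeds fatty acid synthesis, had 16.2, 13.4 and 13.2 FPKM with lncFABP4 and 14.4, 11.1 and 14.5 FPKM with EGFP, which overlap (0.10, SE 0.13, limma adjusted p = 0.597). SLC25A11, the 2-oxoglutarate carrier of the malate-aspartate shuttle, differed by 0.11 and SLC25A21, the oxoadipate carrier, by 0.18 in log2(FPKM + 1), and neither was called (limma adjusted p = 0.353 and 0.378). The carnitine/acylcarnitine carrier SLC25A20 had 21.9, 18.7 and 18.3 FPKM with lncFABP4 and 22.0, 19.3 and 21.8 FPKM with EGFP, with overlapping groups (-0.10, limma adjusted p = 0.474).

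Of the 3 ADP/ATP carrier models tested, 1 was called higher and none lower. SLC25A5, the form typical of dividing cells, had 63.1, 67.9 and 68.9 FPKM with lncFABP4, against 48.4, 45.8 and 52.1 FPKM with EGFP. Its groups did not overlap, and it rose 1.37-fold (0.44, SE 0.08, limma adjusted p = 0.00472). SLC25A6 differed by -0.25 (SE 0.13, limma adjusted p = 0.179) and SLC25A4 by -0.18 (SE 0.11, limma adjusted p = 0.261), and neither was called. Without lncFABP4 replicate 1, SLC25A6 differed by -0.39 and was called lower (limma adjusted p = 0.0206), as it was with sample weights (-0.40, limma adjusted p = 0.00644). Leaving out any other single sample gave a limma adjusted p of 0.107 to 0.42 for SLC25A6.

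Transcripts of SLC25A4, SLC25A5 and SLC25A6 were summed, without SLC25A31, which had no named model. Of this sum SLC25A5 made up 19.6%, 25.2% and 25.6% with lncFABP4, against 15.0%, 16.7% and 16.0% with EGFP. SLC25A6 made up 70.2%, 63.2% and 62.9% with lncFABP4, against 74.9%, 71.4% and 70.6% with EGFP. All lncFABP4 samples were above the EGFP samples for the share of SLC25A5 and below them for that of SLC25A6. SLC25A4 made up 11.1% ± 0.785 with lncFABP4 and 11.8% ± 1.65 with EGFP, and the sum of all 3 genes was 289 ± 30.3 FPKM with lncFABP4 and 310.3 ± 28.1 FPKM with EGFP. These genes are close in sequence, so reads could be split between them and the shares are uncertain. The other SLC25A5 model (chr3.1617) stayed at or below 0.666 FPKM with lncFABP4 and 0.456 FPKM with EGFP, and with both models summed the difference was 0.44 (limma adjusted p = 0.004).

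**Figure D4:**
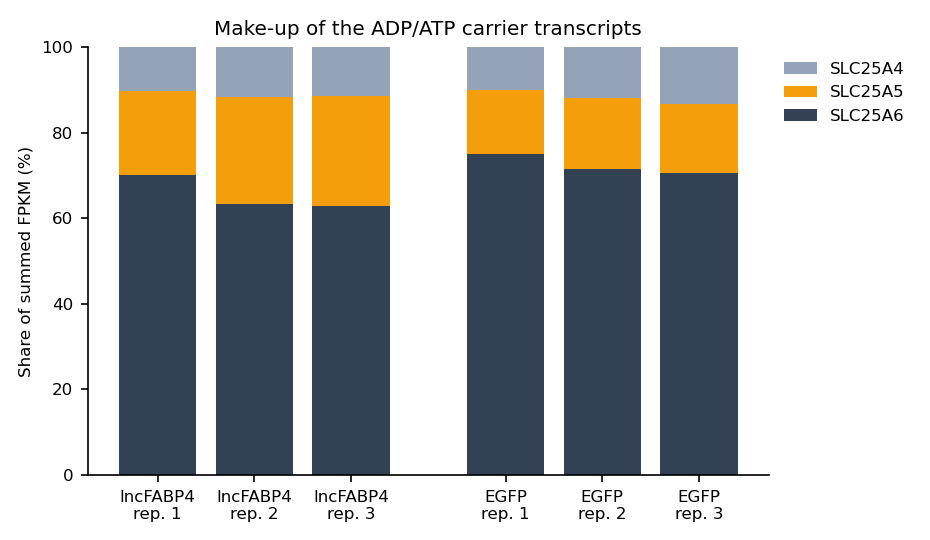
Percent that each took of the FPKM summed over the ADP/ATP carriers SLC25A6 (bottom), SLC25A5 (middle) and SLC25A4 (top), 1 bar for each sample. The SLC25A5 part is 19.6% to 25.6% in the lncFABP4 samples on the left and 15.0% to 16.7% in the EGFP samples on the right.

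Of the ATP-Mg/phosphate carriers, which adjust the adenine nucleotide pool of the matrix in response to calcium, SLC25A25 had 2.76, 3.27 and 3.11 FPKM with lncFABP4, against 1.82, 1.66 and 2.28 FPKM with EGFP. It rose 1.59-fold (0.48, SE 0.11, limma adjusted p = 0.0165). This call was lost without lncFABP4 replicate 2 (adjusted p = 0.06), lncFABP4 replicate 3 (0.0608) or EGFP replicate 1 (0.0564). SLC25A24 made up 97.1% of the summed SLC25A24 and SLC25A25 transcripts with lncFABP4 and 97.7% with EGFP. SLC25A23 and SLC25A41 had no named model and are not in this sum. SLC25A24 was just outside the threshold. It had 88.9, 108 and 106 FPKM with lncFABP4 and 76.2, 89.2 and 78.4 FPKM with EGFP (0.31, SE 0.10, limma adjusted p = 0.0507). Its groups overlapped only through lncFABP4 replicate 1 and EGFP replicate 2. SLC25A24 passed without lncFABP4 replicate 1 (adjusted p = 0.0129), and without EGFP replicate 2 (0.0349). It did not pass without any other single sample (0.14 to 0.159).

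SLC25A46, a degenerate carrier of the outer membrane that takes part in mitochondrial fission and cristae shape, had 36.2, 37.5 and 35.8 FPKM with lncFABP4, against 22.4, 27.2 and 19.8 FPKM with EGFP. The lncFABP4 samples lay close together above a wider EGFP group. It rose 1.58-fold, with means of 36.5 ± 0.887 FPKM with lncFABP4 and 23.2 ± 3.77 FPKM with EGFP (SD, n = 3 each; 0.65, SE 0.11, limma adjusted p = 0.00474).

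The 3 carriers called lower were close to the threshold. SLC25A32, which carries folate and flavin cofactor into mitochondria, had 13.8, 11.2 and 12.3 FPKM with lncFABP4, against 15.6, 15.1 and 18.0 FPKM with EGFP. It fell to 0.765 of the EGFP mean (-0.36, SE 0.10, limma adjusted p = 0.0333). This call was lost without lncFABP4 replicate 2 (adjusted p = 0.112) or 3 (0.0959) and without EGFP replicate 1 (0.0723) or 3 (0.114).

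SLC25A43, whose substrate is not settled, had 5.99, 5.79 and 5.40 FPKM with lncFABP4, against 7.20, 8.41 and 6.95 FPKM with EGFP. It fell to 0.761 of the EGFP mean (-0.34, SE 0.10, limma adjusted p = 0.0325). This call was lost without lncFABP4 replicate 2 (adjusted p = 0.0827) or 3 (0.118) and without EGFP replicate 1 (0.0675), 2 (0.0732) or 3 (0.0527). Its model (chrX.22) is numbered next to that of SLC25A5 (chrX.23), and the genes are neighbours in RefSeq too, yet SLC25A5 was called higher.

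SLC25A27, also named UCP4 and known mainly from neurons in mice and humans, had 1.74, 2.02 and 2.35 FPKM with lncFABP4, against 3.10, 2.63 and 2.80 FPKM with EGFP. It fell to 0.717 of the EGFP mean (-0.34, SE 0.11, limma adjusted p = 0.0486). Leaving out any 1 of the 6 samples ended this call, with adjusted p from 0.0563 (without lncFABP4 replicate 3) to 0.145 (without EGFP replicate 1). The other 4 fits of this kind gave 0.0959 without lncFABP4 replicate 1, 0.117 without lncFABP4 replicate 2, 0.0589 without EGFP replicate 2 and 0.112 without EGFP replicate 3.

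Uncoupling proteins in the narrow sense were barely present. UCP1, the marker of brown and beige fat, was listed at 0, 0 and 0.0360 FPKM with lncFABP4 and at 0.0123, 0 and 0 FPKM with EGFP. UCP2, the widely expressed form, was at 0.448, 0.318 and 0.759 FPKM with lncFABP4 and 0.371, 0.151 and 0.576 FPKM with EGFP, with overlapping groups. Both were below the minimum for testing, and UCP3 was not analysed here. The related carriers SLC25A14 (UCP5), at 4.13 FPKM with lncFABP4 and 4.23 FPKM with EGFP, and SLC25A30, at 11.6 FPKM with lncFABP4 and 13.6 FPKM with EGFP, were expressed but not called (limma adjusted p = 0.833 and 0.195).

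None of the 4 iron, copper and glutathione carrier models tested was called by limma (1 at an unadjusted p under 0.05), although SLC25A37 (mitoferrin-1, the iron carrier of red cell precursors) was just outside. It had 4.93, 4.14 and 4.34 FPKM with lncFABP4, against 5.71, 5.38 and 5.86 FPKM with EGFP, without overlap (-0.28, SE 0.09, limma adjusted p = 0.0514). It passed without lncFABP4 replicate 1 (adjusted p = 0.0258) but not without any other single sample (0.062 to 0.169). SLC25A37 was the minor mitoferrin, at 9.05% ± 1.57 of mitoferrin transcripts with lncFABP4 and 10.8% ± 0.830 with EGFP. The 2 SLC25A28 models (chr23.145 and chr23.146) carry consecutive numbers where RefSeq lists 1 gene, and whether they are separate genes was not tested. Summed, they differed by -0.05 (limma adjusted p = 0.861).

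In the group of nucleotide, NAD, coenzyme A, folate and related cofactor carriers, 1 of 7 tested models was called lower, SLC25A32, and none higher. SLC25A51, the NAD carrier, had 12.1, 14.6 and 13.8 FPKM with lncFABP4, against 16.8, 19.4 and 15.3 FPKM with EGFP, without overlap but outside the threshold (-0.32, SE 0.11, limma adjusted p = 0.0573). SLC25A16, linked to coenzyme A, stood at 10.8 ± 0.719 FPKM with lncFABP4 and 12.9 ± 1.15 FPKM with EGFP (-0.24, limma adjusted p = 0.0852). SLC25A33, a pyrimidine nucleotide carrier, and SLC25A36 had overlapping groups.

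None of the 4 amino acid and S-adenosylmethionine carriers tested was called by limma (1 at an unadjusted p under 0.05). SLC25A15 was highest, at 43.0, 49.2 and 42.8 FPKM with lncFABP4, against 39.8, 38.2 and 37.2 FPKM with EGFP, without overlap (0.22, SE 0.08, limma adjusted p = 0.0719). SLC25A38, the glycine carrier needed for haem synthesis, SLC25A26, the S-adenosylmethionine carrier, and SLC25A44, the carrier of branched-chain amino acids in brown fat of mice, differed by -0.07, -0.07 and 0.08 in log2(FPKM + 1). The model named SLC25A2, after a second ornithine carrier, was below the minimum for testing. It had no protein-coding RefSeq gene of that name for comparison. It had 0.768, 0.952 and 1.28 FPKM with lncFABP4, against 0.288, 0.250 and 0.228 FPKM with EGFP, and the groups did not overlap. The ratio of means was 3.92, and in the fit without a minimum the difference was 0.67 (SE 0.10, limma adjusted p = 0.0109). That fit takes in many models near 0, and SLC25A2 was picked after its values were seen, so this is a description.

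The remaining models below the minimum were SLC25A53, SLC25A47 and SLC25A42, all at or below 0.547 FPKM in any sample, and SLC25A3 (chr6.807). SLC25A3, the phosphate carrier gene, reached at most 0.0313 FPKM. This model and the SLC25A5 model chr3.1617 shared none of their 10 RefSeq neighbours within 5 places, so the names of both are uncertain. In all, 35 of the 40 models shared at least 1 neighbour with the RefSeq gene of their name (assembly NDDB_SH_1). SLC25A24, SLC25A2 and SLC25A53 had no protein-coding RefSeq gene of that name for comparison. Of 46 protein-coding family symbols in RefSeq, 35 had a named model, and the other 11, UCP3 among them, were not analysed here under those names.

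Within each group 1 sample was most often the one farthest from the group median. Among the 31 carriers, lncFABP4 replicate 1 was the sample farthest from its group median in 22 (71.0%, against 54.2% of all models), and EGFP replicate 2 in 16 (51.6%, against 46.9%).

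Genes that work beside the carriers were counted from lists of related genes. The counts below stand against 16.5% of all models called higher and 10.2% called lower, and against 24.6% higher and 15.6% lower at an unadjusted p under 0.05. Of 21 mitochondrial transporter models other than the named members, limma called 6 higher and 0 lower (10 and 1 at an unadjusted p under 0.05; median 0.16, against 0.05 over all models, in log2(FPKM + 1)). ABCB8, an ABC transporter of the inner membrane (0.85), LETM1, a cation/proton exchanger (0.72), MTCH2, an outer membrane insertase and distant relative of the carriers (0.52), and VDAC1, the outer membrane pore (0.31), rose. For the import of carrier proteins 10 of 17 listed names had a model. Of its 11 tested models, 5 were called higher and 0 lower (6 and 0 at an unadjusted p under 0.05, median 0.27). TIMM8A (0.71) and TOMM40 (0.37), which escort or pass precursors, and AGK (0.46) and TIMM22 (0.41), of the complex that inserts carriers, rose.

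Of 21 models of enzymes on either side of the shuttles, 3 were called higher and 0 lower (4 and 0 at an unadjusted p under 0.05; median 0.13). These were CPT1A and CPT2, which make and remake acylcarnitine around the carnitine carrier, and MDH2, the malate dehydrogenase of the matrix. CPT1A averaged 74.9 ± 5.38 FPKM with lncFABP4 and 44.7 ± 2.42 FPKM with EGFP (SD, n = 3 each; 0.73, SE 0.08, limma adjusted p = 0.000872). CPT2 averaged 31.2 ± 4.69 FPKM with lncFABP4 and 17.8 ± 4.09 FPKM with EGFP (0.79, limma adjusted p = 0.00937), while SLC25A20 between them was not called. MDH2 averaged 96.2 ± 6.69 FPKM with lncFABP4 and 69.1 ± 3.16 FPKM with EGFP (0.47, limma adjusted p = 0.00402).

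Of 32 listed ATP synthase names only 12 had a model. Of the 14 models tested limma called 1 (3 higher and 1 lower at an unadjusted p under 0.05). This was ATP5PB, a stalk subunit, which rose by 0.44. Of 15 models of mitochondrial biogenesis regulators limma called 1 (2 higher and 0 lower at an unadjusted p under 0.05). This was SIRT3, the matrix deacetylase, at 4.88 ± 0.629 FPKM with lncFABP4 and 2.14 ± 0.292 FPKM with EGFP (0.91, limma adjusted p = 0.00152). Among 6 tested adipocyte markers 3 were called higher and 1 lower. Among 2 tested brown and beige markers 0 were called higher and 1 lower, COX7A1 of muscle and brown fat respiration (-0.42, limma adjusted p = 0.0459). ELOVL3 of that list, not tested, went the other way near 0. It had 0.252, 0.319 and 0.538 FPKM with lncFABP4 and 0.237, 0.208 and 0.114 FPKM with EGFP. Both tested muscle markers, DES and MYH3, were called lower, and their list summed to 2.55 to 3.47 FPKM with lncFABP4 and 4.84 to 5.42 FPKM with EGFP. Of the 7 leukocyte and endothelial markers 2 were tested and 1, VWF, was called higher (0.34), and their list summed to 13.0 to 13.5 FPKM with lncFABP4 and 11.7 to 13.9 FPKM with EGFP. PTPRC and PECAM1, which define leukocytes and endothelium, were at or below 0.0191 FPKM in every sample. Other markers of the list were not near 0. CD68 had 9.06, 8.54 and 9.04 FPKM with lncFABP4 and 8.42, 9.39 and 10.6 FPKM with EGFP, and was not called. VWF had 4.07, 4.27 and 4.01 FPKM with lncFABP4 and 2.86, 3.2 and 3.07 FPKM with EGFP. Whether such cells were present was not tested.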

How the data were processed

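The deposited table gives each gene model 1 value in each of the 6 samples. The authors' values were read as FPKM from their decimals and unequal column totals, since the header names no unit. Per the submitters' processing notes the tools included HISAT2 and StringTie, with no version given. Genome build, annotation and strand setting were not stated in any source used here, and no coordinates are printed. Gene names come from the authors' protein matches, 4570 models had none, and near-identical genes may share reads. Read depth is unknown. Relative to EGFP replicate 1, the steps that single reads leave in low values put the depth of the lncFABP4 samples at 0.923 to 0.954 and of the other EGFP samples at 0.984 to 1.01.

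Groups follow the sample titles. limma 3.58.1 (R 4.3.3) was fitted on log2(FPKM + 1) with a mean-variance trend, two-sided, lncFABP4 minus EGFP, without a replicate block, on models that reached 1 FPKM in 3 or more samples, with Benjamini-Hochberg adjustment over 11064 models at 0.05. The fit was tested on simulated data. The members and lists were chosen with earlier results of these data known. Named members were all those called, the 10 highest in EGFP samples, the UCP genes and SLC25A35; further members are given by role, and related lists give up to 4 models with the smallest adjusted p. Exceptions, chosen after their values were seen, are the members just outside the threshold, SLC25A2 and the neighbours of SLC25A35. Counts over the family include 1 model that is not reported here by name. RefSeq's gene table served for names and neighbours only.

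Alternatives were other pseudocounts (0.1 and 0.01), no minimum, a minimum of 5 FPKM, TMM (unweighted), quantile and median-of-ratios scaling, rescaling without FABP4, models summed per name, the replicate block, a robust variance model (statmod 1.5.0), sample weights, and leaving out each sample or replicate number.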

Additional observations from a re-analysis of the deposited data

How the results depend on the processing

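Of 646 values of single carriers under 21 alternatives, 580 kept their side of the threshold, 38 lost it, 28 passed it and 0 called ones changed sign; 8 carriers that were not called changed sign in at least 1 alternative. SLC25A10 was called in all 21. SLC25A5 and SLC25A46 were lost only without replicate number 3 of both groups (limma adjusted p = 0.0653 and 0.0639). The count of carriers called higher was 5 to 7 under the other settings and 2 to 6 when samples or replicate numbers were left out. The count called lower was 3, against 6 with TMM, 7 with quantile scaling, 6 with median-of-ratios scaling, 6 with sample weights and 0 without a minimum; it was 0 to 4 when samples or replicate numbers were left out. TMM, quantile and median-of-ratios scaling moved the median difference over all models to 0.001, 0.007 and -0.001, against 0.049, and the cause of the added calls was not tested.

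The labels give both groups the same replicate numbers. Whether these numbers pair the samples cannot be told from 3 samples per group. Same-numbered deviations from the group means correlated by 0.181, 0.291 and -0.077, and only number 2 correlated best with its own. The fit with the replicate number as a block called 6 carriers higher and 3 lower. It added SLC25A24 and SLC25A51 and lost SLC25A27. Over all models the block fit called 2061 higher and 1275 lower, against 1827 and 1131 without the block. Read depth is unknown, which limits the 9 models under the minimum most.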

Other observations

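A total of 3 models carry a protein entry of this family but no gene name, and so were not members. The model with the entry MCATL_BOVIN, a carnitine/acylcarnitine carrier-like protein now regarded as a basic amino acid carrier, is numbered next to SLC25A47. It had 9.20, 8.85 and 12.7 FPKM with lncFABP4, against 6.95, 6.44 and 6.56 FPKM with EGFP, and the groups did not overlap. It rose 1.54-fold (0.54, SE 0.13, limma adjusted p = 0.0179). The models with the entries CMC1_PONAB and CMC2_HUMAN, the calcium-regulated aspartate/glutamate carriers of the malate-aspartate shuttle, were not called. CMC1_PONAB averaged 8.71 ± 1.05 FPKM with lncFABP4 and 9.52 ± 0.558 FPKM with EGFP (-0.12, limma adjusted p = 0.401). CMC2_HUMAN averaged 8.50 ± 0.695 FPKM with lncFABP4 and 8.18 ± 0.477 FPKM with EGFP (0.05, limma adjusted p = 0.724). These models were chosen by their entry names, and their values are a description.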
